A study of Mus musculus with 12 samples.

Results

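The 33 genes described here encode scaffold and signalling proteins of the postsynaptic density, the protein layer under the membrane of excitatory synapses, together with gephyrin, the scaffold of inhibitory synapses. They were picked by symbol from the 36119 genes of the deposited table by the role of their products. The rule used no measured value, but the choice was made with earlier results of these data known. All 33 were in the table, and all 33 averaged 1 or more over the libraries, the filter for testing, which 14947 genes passed in all. Hippocampal RNA came from 12 mice of the C57BL/6 strain, 3 per group in 4 groups, killed at postnatal day 70. Enriched ethanol and standard ethanol mice had received ethanol under the skin as pups, at 2.5 g/kg in 0.15 M saline, in 2 injections given 2 hours apart on postnatal days 6 and 7. Enriched saline and standard saline mice were given the same volume of 0.15 M saline alone. From postnatal day 21 the enriched groups lived in large cages of 2 to 6 littermates of the same sex with running wheels, toys and extra nest material, and the standard groups in standard housing. The labels call the ethanol exposure prenatal, although every injection came after birth. No genotype, deletion or transgene is recorded in any group.

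In the postsynaptic density, membrane-associated guanylate kinases (MAGUKs) hold glutamate receptors and adhesion proteins at the synapse. GKAP proteins tie the MAGUKs to Shank, and Shank and Homer proteins form a deeper lattice that reaches metabotropic receptors and the actin of the dendritic spine. Calcium entering through NMDA receptors binds calmodulin and activates calcium/calmodulin-dependent protein kinase II (CaMKII), which is needed for hippocampal long-term potentiation, and regulators of small GTPases set the shape of the spine. In the hippocampus most of these proteins work in pyramidal and granule cells.

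The values are the deposited TPM, a measure per transcript length, so levels can be set beside each other between genes; the depth of the libraries is unknown. Markers of neurons were present in every library. Slc17a7, a vesicular glutamate transporter found in pyramidal cells among others, was between 474.5 and 619 TPM. Rbfox3, a nuclear protein of neurons, was between 98.5 and 125, and Prox1, a transcription factor of dentate granule cells, between 18.7 and 41.9. Transthyretin (Ttr), a product of the choroid plexus, reached 7503 TPM in replicate 2 of enriched saline and 385 in replicate 1 of standard ethanol, against 20.8 to 118 in the remaining 10 libraries. Dentate granule cell markers, 10 in number, were highest on average in replicate 2 of standard saline, by 0.59 log2 units over their 12-library mean. The tissue was bulk, so fewer cells of a type and less RNA per cell cannot be told apart. The sex of each mouse is not in the labels, nor is whether mice in a group were of separate litters. The p-values therefore measure only the spread between these libraries.

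Promoter sequence is shown for 4 members that the comparisons below return to: Kalrn, Camk2b and Ppp1r9b, whose libraries were set apart together in the mice of standard cages, and Nrgn, set apart in those of enriched cages. Camk2b and Ppp1r9b were set apart in enriched cages too, where 9 members were higher without overlap. The sequences are RefSeq's, on GRCm38.p6, 5′ to 3′ on the gene's strand. Each covers the 250 bases before the RefSeq start or, where a GENCODE M21 exon of the gene reaches into them, the bases upstream of that exon. Capitals mark the GC box, GGGCGG or its complement CCGCCC, searched on both strands.
Kalrn, chr16:34514116-34514277, minus strand: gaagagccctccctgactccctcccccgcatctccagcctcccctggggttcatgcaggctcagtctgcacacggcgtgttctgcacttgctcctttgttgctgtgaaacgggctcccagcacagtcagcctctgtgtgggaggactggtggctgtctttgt
Camk2b, chr11:6065749-6065998, minus strand: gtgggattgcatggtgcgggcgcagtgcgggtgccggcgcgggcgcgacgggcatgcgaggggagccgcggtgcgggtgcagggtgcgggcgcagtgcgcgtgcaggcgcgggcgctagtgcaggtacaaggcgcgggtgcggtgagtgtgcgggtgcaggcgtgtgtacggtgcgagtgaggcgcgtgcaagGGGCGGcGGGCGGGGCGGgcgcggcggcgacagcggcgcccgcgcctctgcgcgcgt
Ppp1r9b, chr11:94990962-94991034, plus strand: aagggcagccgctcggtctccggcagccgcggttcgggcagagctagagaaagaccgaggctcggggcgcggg
Nrgn, chr9:37552905-37552995, minus strand: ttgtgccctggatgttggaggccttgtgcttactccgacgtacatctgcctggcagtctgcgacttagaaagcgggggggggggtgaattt
The Camk2b window held 3 GC boxes, the Kalrn and Ppp1r9b windows 0, and the Nrgn window 1, which lies in the exon and is not printed. The windows of Kalrn and Camk2b lie inside genes as GENCODE draws them, since longer transcripts start further upstream. Among 32851 RefSeq promoters of the same length, 32.7% held a GC box, as did 50.0% of 42 promoters of 26 members; 7 members were not in the table used. The cyclic AMP response element TGACGTCA was in 1.5% of all promoters and in 0 of the 42, and the TATA box TATAAA was in 12.4% and 11.9%. These matches describe letters in a window and are not binding sites.

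All 33 members were above the median level of the hippocampal genes tested, at the 66.9th to 99.0th percentile of level. Their means over the 12 libraries ran from 35.3 TPM for Dlgap2 to 673 TPM for Camk2a, with a median of 94.9, and 6 members exceeded 300 TPM.

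**Figure D1:**
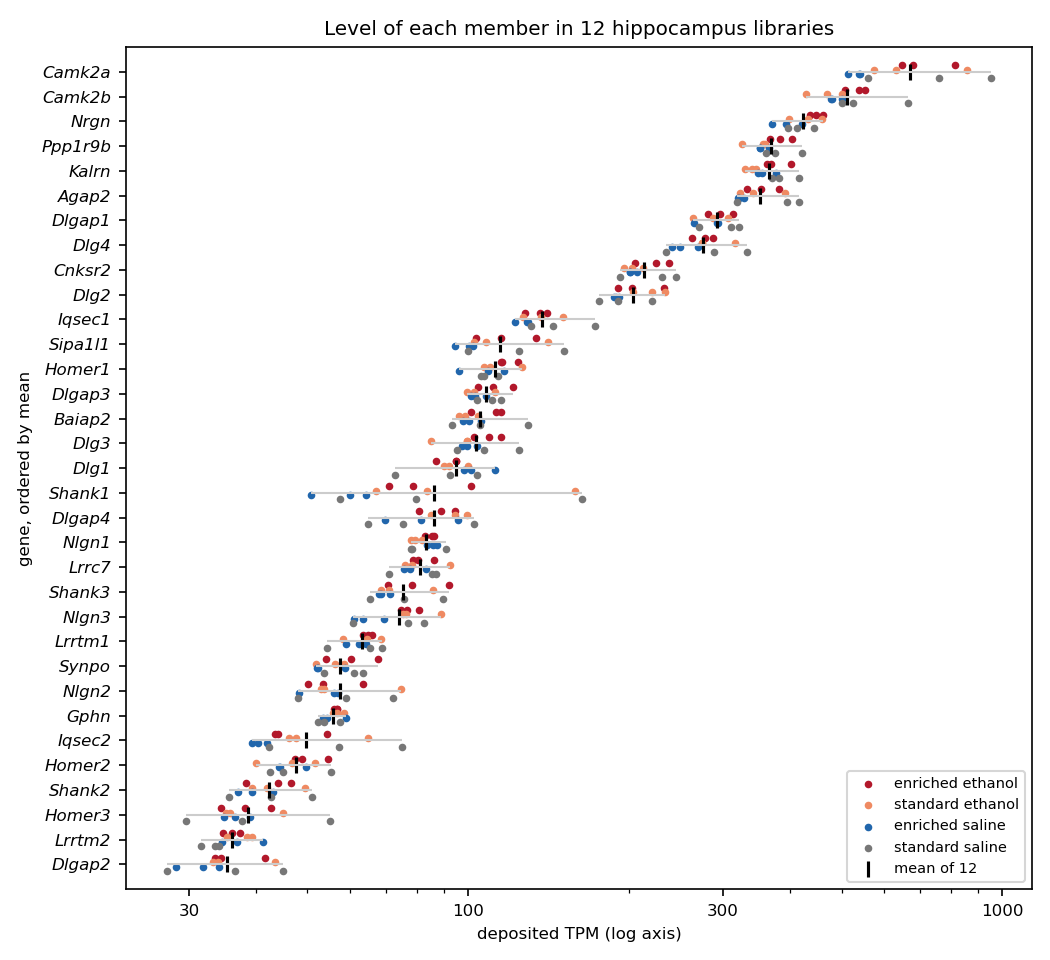
Deposited TPM (log axis) of each of the 33 members in the 12 libraries, coloured by group, with genes ordered by their mean over the 12 libraries (black bar). Camk2a, Camk2b, Nrgn, Ppp1r9b, Kalrn and Agap2 lie above 300 TPM on average, and Shank1 has the widest range, 50.9 to 164 TPM.

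Of the MAGUK scaffolds, Dlg4, which encodes the main scaffold of mature excitatory synapses, averaged 276 TPM and ranged over 235 to 333 TPM. Dlg2, a close paralog at the same synapses, averaged 203 TPM (175 to 234), Dlg3 averaged 103 TPM (85.1 to 124) and Dlg1 94.9 TPM (72.8 to 112). Dlg3 is an X-linked MAGUK that carries NMDA receptors, and Dlg1 helps to carry AMPA receptors to the synapse. The GKAP scaffolds spanned a wide range of levels: Dlgap1 averaged 292 TPM (264 to 321), Dlgap3 108 TPM (99.6 to 122), Dlgap4 86.1 TPM (65.03 to 103) and Dlgap2 35.3 TPM (27.3 to 45.1). All 4 link MAGUKs to Shank proteins.

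Among the Shank scaffolds, Shank1 averaged 86.4 TPM (50.9 to 164), Shank3 75.5 TPM (65.4 to 92.1) and Shank2 42.4 TPM (35.7 to 50.96). The Homer proteins cross-link Shank to group I metabotropic glutamate receptors. Homer1 averaged 112 TPM (95.95 to 126), Homer2 47.5 TPM (40.02 to 55.2) and Homer3 38.7 TPM (29.7 to 55.2). The Homer1 value is given per gene, so the short form induced by activity and the long scaffold form are not separated.

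The kinase subunits and the calmodulin buffer were the most abundant members. Camk2a encodes the alpha subunit of CaMKII and averaged 673 TPM (515 to 951), and Camk2b encodes the actin-binding beta subunit and averaged 512 TPM (428 to 667). Nrgn encodes neurogranin, which holds calmodulin while calcium is low, and averaged 423 TPM (369.9 to 462).

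The adhesion members bind presynaptic neurexins. Nlgn1, the neuroligin of excitatory synapses, averaged 83.2 TPM (77.96 to 90.7), Nlgn3, which is found at both kinds of synapse, 74.1 TPM (60.8 to 89.1), and Nlgn2, the neuroligin of inhibitory synapses, 57.4 TPM (48.1 to 74.8). The leucine-rich repeat proteins Lrrtm1 and Lrrtm2 averaged 63.4 TPM (54.4 to 68.8) and 36.1 TPM (31.6 to 41.3).

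Regulators of small GTPases included Kalrn, an exchange factor that enlarges spines, at 366 TPM (329.5 to 416), and Agap2, a GTPase-activating protein for Arf, at 352 TPM (319 to 416). Iqsec1 and Iqsec2, exchange factors for Arf, averaged 137 TPM (122 to 173) and 49.8 TPM (39.4 to 75.1), and Sipa1l1, a GTPase-activating protein for Rap, 115 TPM (94.4 to 151). Ppp1r9b encodes spinophilin, which brings a protein phosphatase to spine actin, and averaged 369 TPM (326 to 422). The adaptor Cnksr2 averaged 213 TPM (193 to 245) and Baiap2, which couples membranes to actin, 105 TPM (93.1 to 129.6). Lrrc7, the densin gene, averaged 81.1 TPM (71.1 to 92.4) and Synpo, the synaptopodin of the spine apparatus, 57.6 TPM (51.9 to 67.8). Gphn, the gephyrin gene, averaged 55.9 TPM (52.3 to 59.1).

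Most members differed little between the 12 mice. The highest library was under 1.5 times the lowest for 23 members and 1.5 to 2 times the lowest for 9. Shank1 alone was above 2, at 3.21 times, with a coefficient of variation of 44.0% within groups, while Gphn varied least, at 1.13 times and 3.84%. Shank1 stood at 101, 71.1 and 78.8 TPM in enriched ethanol, 158, 83.7 and 67.1 in standard ethanol, 60.03, 50.9 and 64.2 in enriched saline and 57.5, 79.7 and 164 in standard saline mice. Its 2 highest values lay in different groups, and enriched saline mice held its lowest value. The median coefficient of variation of the members within a group was 6.64% in enriched ethanol, 8.32% in standard ethanol, 4.93% in enriched saline and 14.2% in standard saline mice.

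Libraries of the same group differed in the level of the members as a whole. The mean deviation of the 33 from their own 12-library means, on the log2 scale, was 0.14, -0.01 and -0.01 in the 3 enriched ethanol libraries, 0.12, -0.02 and -0.07 in standard ethanol, -0.09, -0.14 and -0.04 in enriched saline, and -0.16, 0.09 and 0.17 in standard saline. The standard saline group therefore held both the highest and the lowest library. Replicates 2 and 3 of standard saline held the highest value of 21 members, 10 and 11, and its replicate 1 the lowest value of 15. Adding replicate 1 of enriched ethanol and replicate 1 of standard ethanol, 4 libraries held the highest value of 29 of 33 members.

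**Figure D2:**
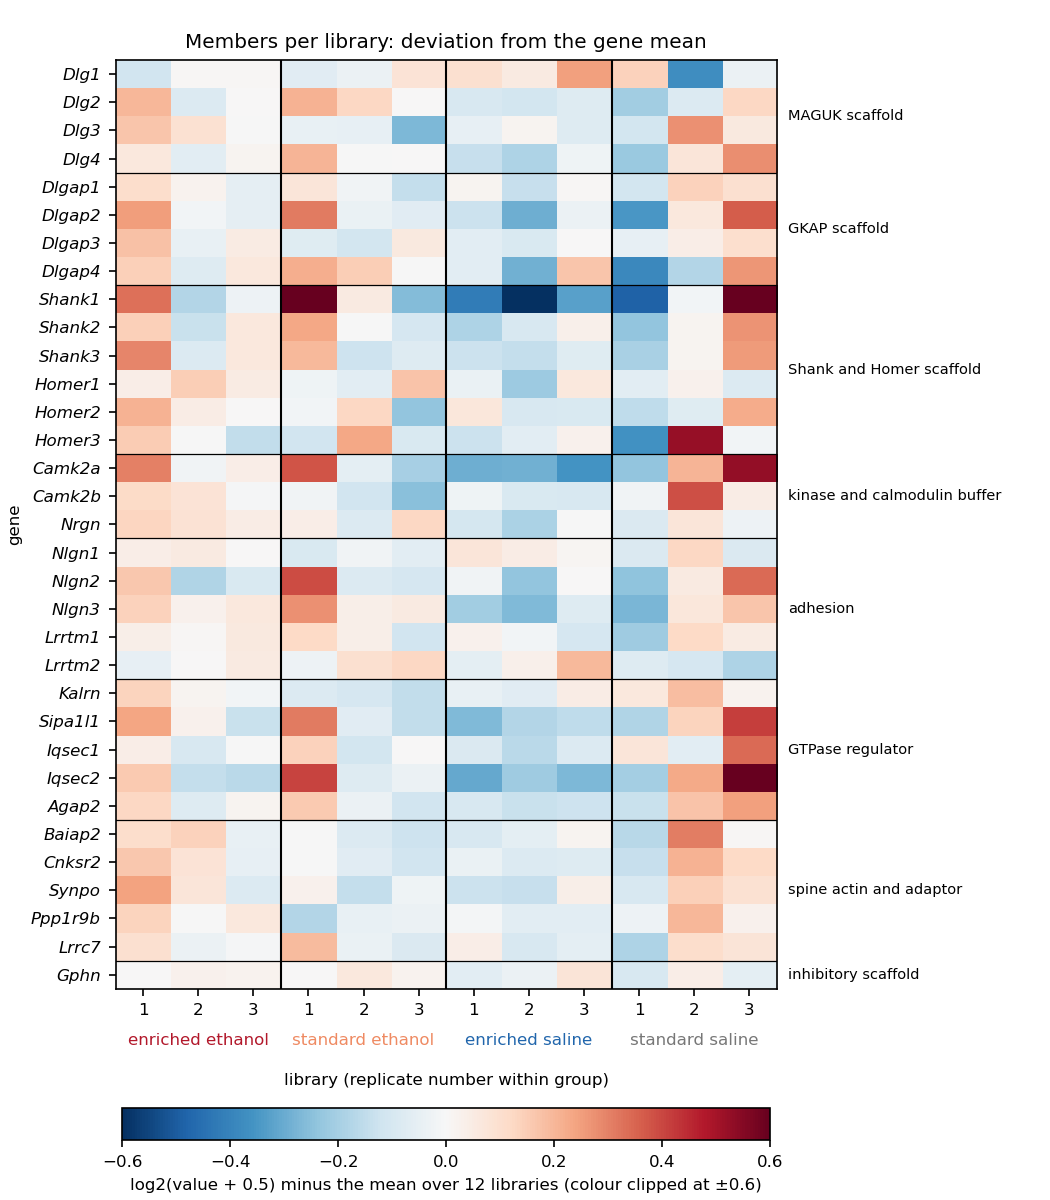
Deviation of each member from its own mean over the 12 libraries, as log2(TPM + 0.5), with genes in rows by role and libraries in columns by group (colour clipped at ±0.6). The columns of standard saline replicate 3, enriched ethanol replicate 1 and standard ethanol replicate 1 are mostly red, and those of standard saline replicate 1 and enriched saline replicate 2 mostly blue.

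Transcript length went along with this pattern. The members have long transcripts, with a median of 5713 bases against 3188 for the 14109 protein-coding genes tested with a known length, and 30 of 33 members were above that median. Across those 14109 protein-coding genes, the ratio of a library's value to the 12-library mean was correlated with transcript length. Spearman rho was 0.27 in enriched ethanol replicate 1, 0.23 in standard saline replicate 3 and 0.19 in standard ethanol replicate 1. The lowest rho were -0.22 in enriched saline replicate 2, -0.19 in standard saline replicate 1 and -0.13 in enriched saline replicate 1. These are descriptions across genes, which share libraries and are not replicates. With the length trend taken out of each library, the members' mean deviations shrank in every library but standard saline replicate 2, and ran from -0.13 in standard saline replicate 1 to 0.12 in standard saline replicate 3. Enriched ethanol replicate 1 then stood at 0.10 and standard ethanol replicate 1 at 0.08. Standard saline replicate 2 had a rho of only 0.04 and a deviation of 0.09 before and 0.10 after.

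**Figure D3:**
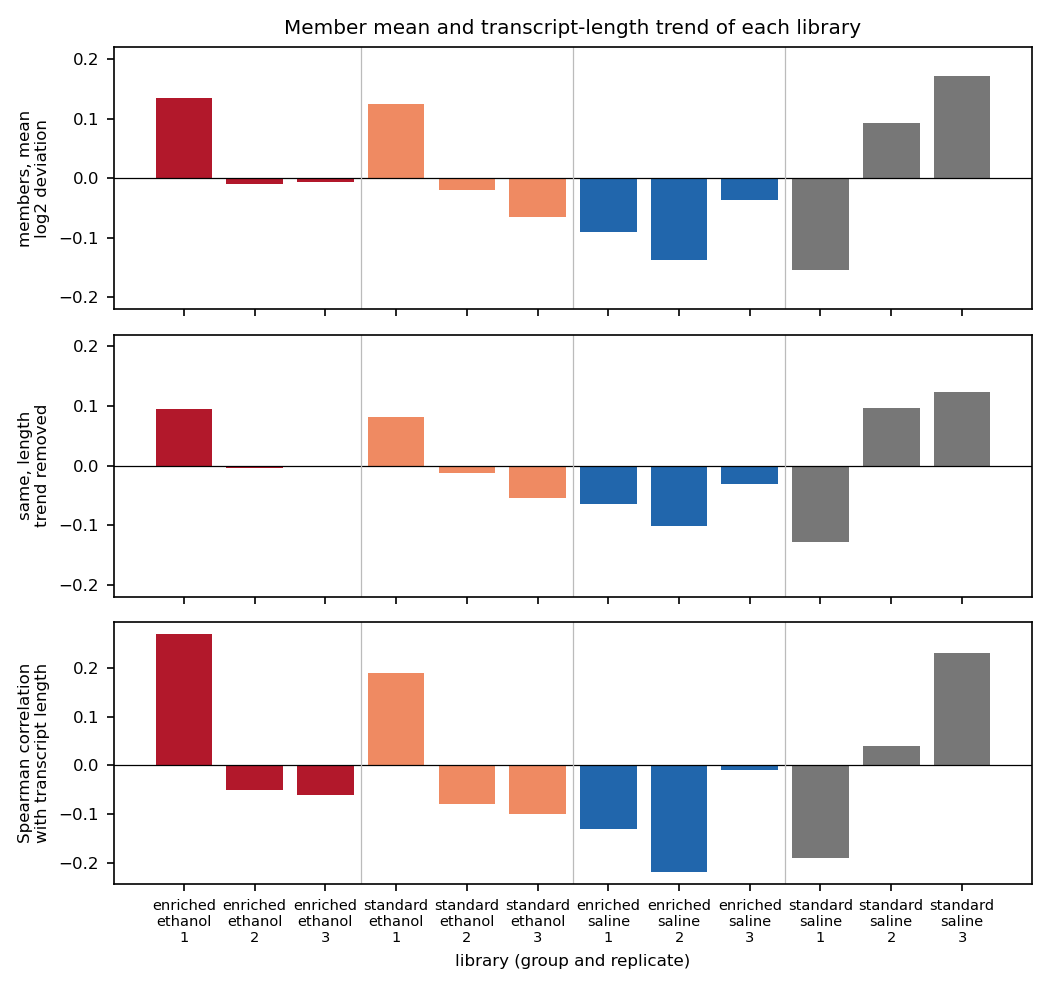
Bars for each of the 12 libraries: the mean log2 deviation of the 33 members (top), the same after the transcript-length trend was removed (middle), and the Spearman correlation between a library's value ratio and transcript length (bottom). The correlation was taken across the protein-coding genes tested with a known length. Standard saline replicate 3 and enriched ethanol replicate 1 are high in all 3 panels, and standard saline replicate 1 and enriched saline replicate 2 low in all 3.

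Each comparison asks whether exposure as a pup, or the later housing, shifted these genes in the adult. limma was fitted to log2(TPM + 0.5) of all genes tested, so fold changes are on that scale, and p-values were adjusted by Benjamini-Hochberg over the 14947 genes. Across the 7 comparisons, 0 of 33 members passed an adjusted p of 0.05. The same threshold called 0.0134% of all genes for ethanol in standard cages, 0% for ethanol in enriched cages, 0.0268% for enrichment in saline mice and 0.00669% for enrichment in ethanol mice. It called 0.0134% for the interaction, 0.0134% for ethanol averaged over housing and 0.0201% for enrichment averaged over exposure. The smallest limma adjusted p among the members was 0.422. No member is therefore said to have risen or fallen; members with an unadjusted p under 0.05 are described by their values.

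**Figure D4:**
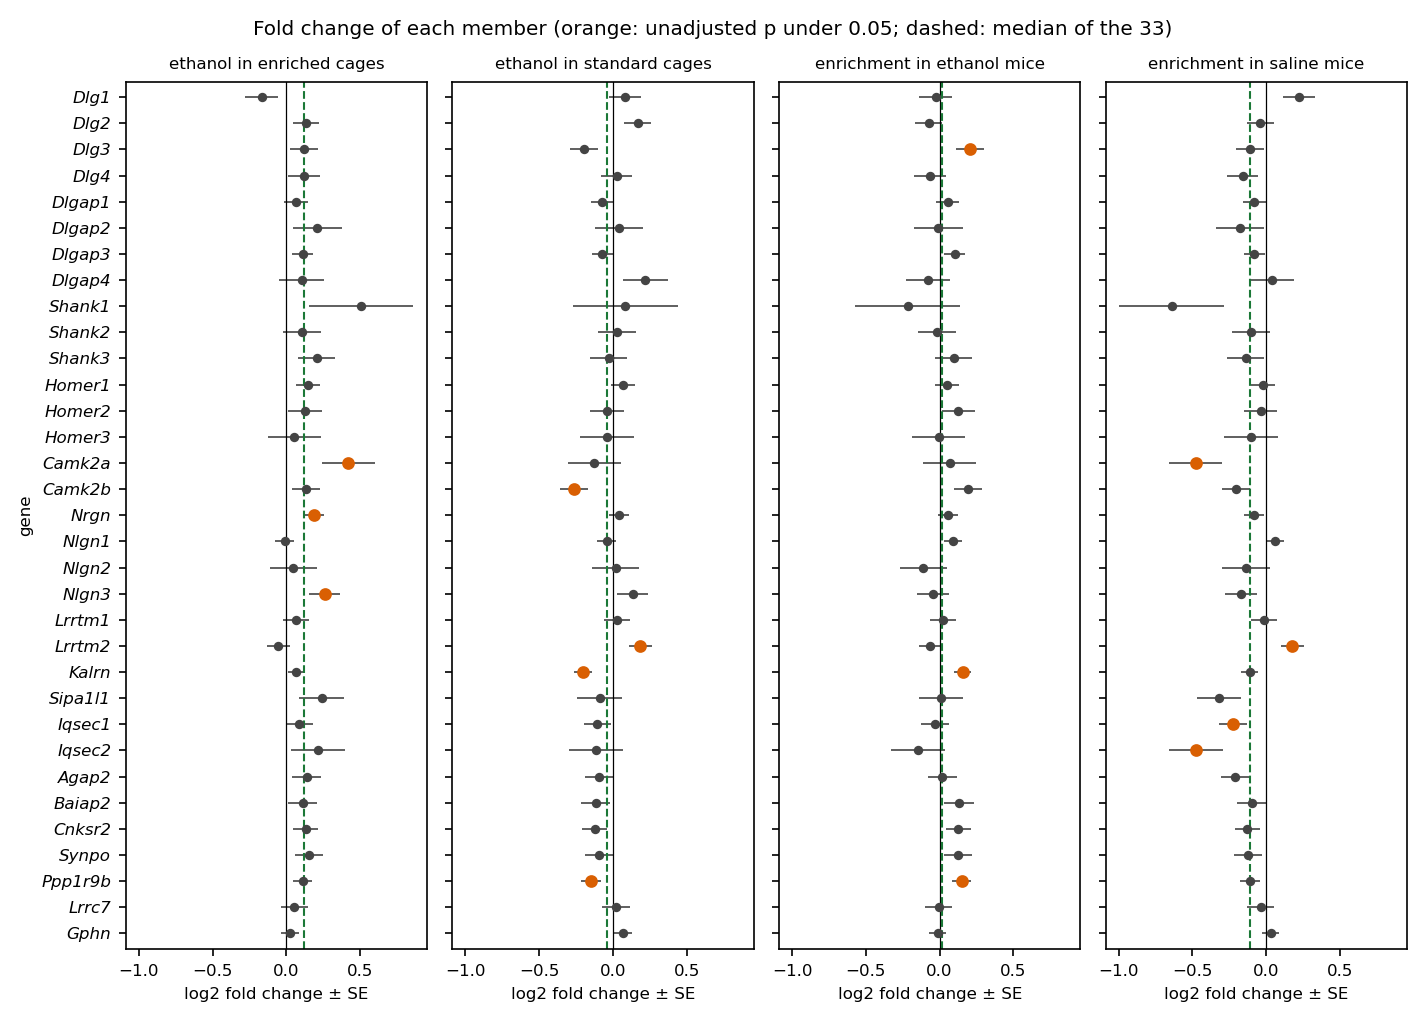
Log2 fold change with its standard error for each member in the comparisons of 2 groups, 3 libraries against 3, as log2(TPM + 0.5); orange marks an unadjusted limma p under 0.05 and the dashed line the median of the 33. The median lies at 0.12 for ethanol in enriched cages, -0.04 for ethanol in standard cages, 0.02 for enrichment in ethanol mice and -0.11 for enrichment in saline mice.

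In enriched cages, members tended to lie higher in ethanol than in saline mice, with the largest fold changes for Shank1 and Camk2a. The fold change was above 0 for 30 of 33 members, against 48.1% of all genes, and the median was 0.12, against -0.01 over all genes. That median was 0.07 without enriched ethanol replicate 1; with the length trend removed it was 0.09 and 29 members were above 0. Unadjusted p was under 0.05 for 3 members, all higher, or 9.09%, against 7.76% of all genes (3.85% higher and 3.91% lower), so the share of members was close to the background. In 9 members every ethanol library lay above every saline library, against 7.78% of all genes; these were Camk2a, Camk2b, Nrgn, Nlgn3, Shank1, Sipa1l1, Iqsec2, Agap2 and Ppp1r9b. Dlg1 was the 1 member with every ethanol library below every saline library, against 7.45% of all genes.

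Nrgn had the smallest p of these. It stood at 462, 448 and 436 TPM in enriched ethanol mice, against 393, 369.9 and 422 TPM in enriched saline mice. All 3 ethanol values were above all 3 saline values, with a log2 fold change of 0.19 ± 0.07 (SE) and a limma adjusted p of 0.592. Nlgn3 stood at 80.97, 74.9 and 76.9 TPM in enriched ethanol mice, against 63.6, 61.2 and 69.7 TPM in enriched saline mice, and the groups did not overlap. The difference was 0.26 ± 0.11 (SE) in log2, with a limma adjusted p of 0.619. Camk2a was at 815, 650.1 and 679 TPM in enriched ethanol mice, against 538, 541 and 515 TPM in enriched saline mice. The saline values were close together and the ethanol group was spread by its replicate 1. Here the log2 fold change was 0.42 ± 0.18 (SE), with a limma adjusted p of 0.625. Shank1 had a larger log2 fold change, 0.51, but with an SE of 0.36 and a limma adjusted p of 0.74. Oligodendrocyte markers differed in the same comparison: 9 of 10 were above 0, with a median log2 fold change of 0.31 and summed levels of 3861 to 5725 TPM in enriched ethanol, against 3232 to 3964 in enriched saline. Choroid plexus markers summed to 46.0 to 53.3 TPM in enriched ethanol, against 35.9 to 7839 in enriched saline. Pyramidal cell markers were above 0 for 8 of 9, with a median log2 fold change of 0.08. No marker of these lists was at 0 in every library, and their part in the members' values was not tested.

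**Figure D5:**
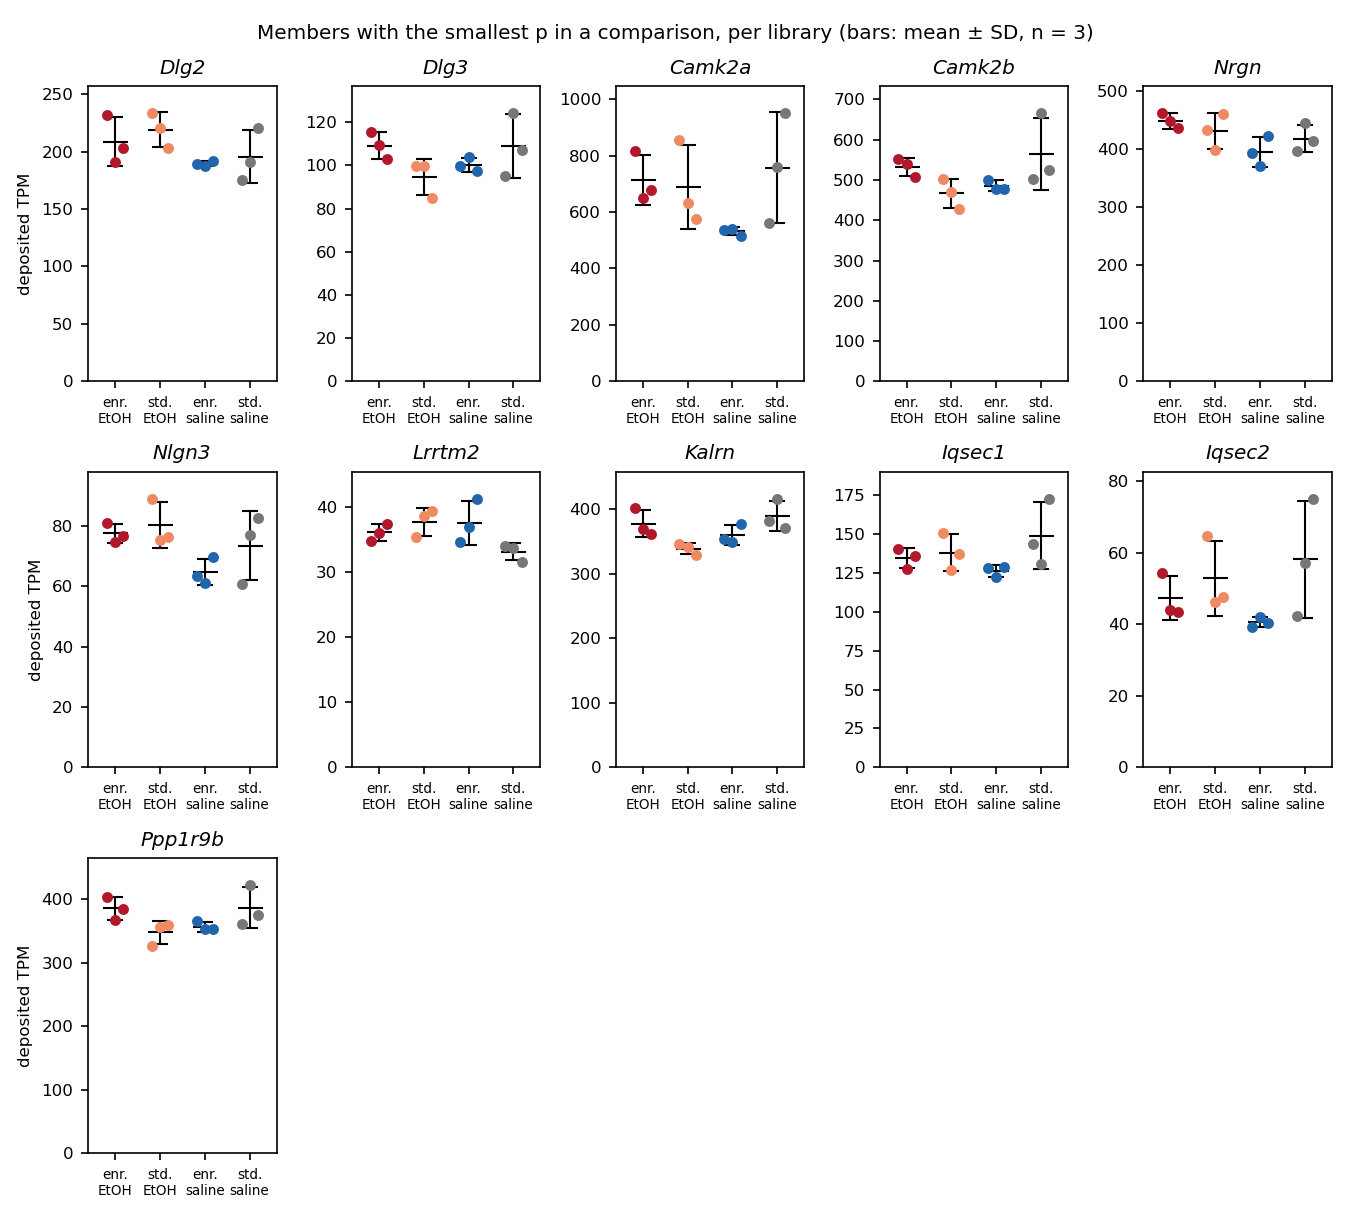
Deposited TPM per library (points), with the mean and SD of 3 libraries (bars), of the 11 members with an unadjusted p under 0.05 in at least 1 comparison; groups from left to right are enriched ethanol, standard ethanol, enriched saline and standard saline. Kalrn, Camk2b and Ppp1r9b are lower in standard ethanol than in standard saline, and Camk2a is lowest and least spread in enriched saline.

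In standard cages the members were split in direction, and which side the median lay on depended on single libraries. The fold change between ethanol and saline mice was above 0 for 15 of 33 members, against 50.7% of all genes, and the median was -0.04, against 0.00. It was -0.13 without standard saline replicate 1, -0.01 without its replicate 2 and 0.055 without its replicate 3, and -0.08 without standard ethanol replicate 1 and -0.001 without standard ethanol replicate 3. Unadjusted p was under 0.05 for 4 members, or 12.1%, against 7.39% of all genes (3.75% higher and 3.64% lower). Lrrtm2 was higher in ethanol mice, and Kalrn, Camk2b and Ppp1r9b were lower. For the same 4 the libraries did not overlap, 1 higher and 3 lower, against 6.11% of all genes higher and 5.99% lower.

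Kalrn stood at 346, 341 and 329.5 TPM in standard ethanol mice, against 382, 416 and 371 TPM in standard saline mice. The ethanol values lay close together and all below the saline values, with a log2 fold change of -0.20 ± 0.06 (SE), an unadjusted p of 0.00602 and a limma adjusted p of 0.484. Camk2b stood at 501, 471 and 428 TPM in standard ethanol mice, against 502, 667 and 525 TPM in standard saline mice. The lowest saline value was within 1 TPM of the highest ethanol value, and saline replicate 2 was far above the rest. Its log2 fold change was -0.27 ± 0.10 (SE), with a limma adjusted p of 0.546. Without standard saline replicate 2 that fold change was -0.14. Ppp1r9b stood at 326, 356 and 359.5 TPM in standard ethanol mice, against 361, 422 and 375 TPM in standard saline mice. The groups were separated by a narrow gap, the log2 fold change was -0.15 ± 0.07 (SE) and the limma adjusted p 0.662. Without standard saline replicate 2 it was -0.08. Lrrtm2 stood at 35.3, 38.6 and 39.3 TPM in standard ethanol mice, against 34.1, 33.6 and 31.6 TPM in standard saline mice. Every ethanol value was above every saline value, with a log2 fold change of 0.19 ± 0.08 (SE) and a limma adjusted p of 0.628.

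Markers of cell types differed in the same libraries. All 10 dentate granule cell markers were below 0 in this comparison, 6 of them at an unadjusted p under 0.05, with a median log2 fold change of -0.49. Their summed level was 242 to 306 TPM in standard ethanol, against 299 to 445 in standard saline, and standard saline replicate 2 held the top. Of 10 oligodendrocyte markers 9 were above 0, 6 of them at an unadjusted p under 0.05, with a median of 0.46. Sums of these markers were 5314 to 5632 TPM in standard ethanol, against 3256 to 5562 in standard saline. Of 9 meningeal fibroblast markers 8 were above 0, 4 of them at an unadjusted p under 0.05, with a median of 0.57 and sums of 137 to 184 TPM in standard ethanol, against 76.5 to 120 in standard saline. Of 9 pyramidal cell markers 6 were below 0, 2 of them at an unadjusted p under 0.05, with a median of -0.09. None of these markers was at 0 in every library. Camk2b, Kalrn and Ppp1r9b all had their highest value in standard saline replicate 2, the library with the most granule cell marker RNA. On the log2 scale the same library deviated by 0.59 in granule cell markers, -0.94 in meningeal, -0.45 in oligodendrocyte, -0.43 in striatal and -0.43 in neocortex and subiculum markers. The part of these cells and regions in the difference was not tested.

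Enrichment of saline mice went with lower values of most members. The fold change was below 0 for 28 of 33 members and above 0 for 5, against 50.9% of all genes above 0, and the median was -0.11, against 0.00. Unadjusted p was under 0.05 for 4 members, 3 lower and 1 higher, or 12.1%, against 10.0% of all genes (5.43% higher and 4.60% lower). The libraries did not overlap for 4 members that were lower in enriched mice, Camk2a, Camk2b, Iqsec1 and Iqsec2, against 6.57% of all genes, and for Lrrtm2, which was higher, against 7.40%. This comparison shares the standard saline libraries with that of ethanol in standard cages, and the enriched saline libraries with that of ethanol in enriched cages.

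Camk2a stood at 538, 541 and 515 TPM in enriched saline mice, against 559.9, 761 and 951 TPM in standard saline mice. Enriched values lay within a narrow band below the lowest standard value, and the standard values were spread widely. The log2 fold change was -0.48 ± 0.18 (SE), with a limma adjusted p of 0.422, and was -0.30 without standard saline replicate 3. Iqsec2 stood at 39.4, 42.01 and 40.4 TPM in enriched saline mice, against 42.3, 57.2 and 75.1 TPM in standard saline mice. The gap between the groups was under 1 TPM, and the difference in means came from standard replicates 2 and 3. The log2 fold change was -0.48 ± 0.18 (SE), with a limma adjusted p of 0.431, and was -0.28 without standard saline replicate 3. Iqsec1 stood at 129, 122 and 129 TPM in enriched saline mice, against 144, 131 and 173 TPM in standard saline mice. Here 1 standard value was far above the others, and the log2 fold change was -0.23 ± 0.09 (SE) with all 3 (limma adjusted p 0.467) and -0.12 without that replicate 3. Lrrtm2 went the other way, at 34.6, 36.9 and 41.3 TPM in enriched saline mice, against 34.1, 33.6 and 31.6 TPM in standard saline mice. Its log2 fold change was 0.18 ± 0.08 (SE), with a limma adjusted p of 0.481, and was 0.11 without enriched saline replicate 3.

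The median of the 33 in this comparison also rested on the standard saline group: it was -0.20 without its replicate 1, -0.06 without its replicate 2 and -0.05 without its replicate 3. With the length trend removed the median was -0.10 and 9 members were above 0. All 10 dentate granule cell markers were below 0 here too, with a median of -0.30 and sums of 267 to 329 TPM in enriched saline, against 299 to 445 in standard saline. Meningeal fibroblast markers were above 0 for 9 of 9, at 119 to 202 TPM in sum in enriched saline, against 76.5 to 120 in standard saline. All 10 oligodendrocyte markers were below 0, with a median of -0.18. Pyramidal cell markers were below 0 for 6 of 9, with a median of -0.125, and 2 were higher and 2 lower at an unadjusted p under 0.05. The part of these cells in the members' values was not tested.

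Enrichment of ethanol mice left the members near 0. The fold change was above 0 for 18 of 33 members, against 48.2% of all genes, and the median was 0.02, changing sign to -0.006 without enriched ethanol replicate 1 and -0.03 without standard ethanol replicate 3. Unadjusted p was under 0.05 for 3 members, all higher in enriched mice, or 9.09%, against 5.57% of all genes (2.91% higher and 2.66% lower). In 5 members, Kalrn, Ppp1r9b, Dlg3, Camk2b and Nlgn1, every enriched value lay above every standard value, against 6.07% of all genes, and in 0 below, against 5.97%.

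Kalrn stood at 402, 369 and 362 TPM in enriched ethanol mice, against 346, 341 and 329.5 TPM in standard ethanol mice. All enriched values were above all standard values, with a log2 fold change of 0.16 ± 0.06 (SE) and a limma adjusted p of 0.877. Ppp1r9b stood at 404, 368 and 384 TPM in enriched ethanol mice, against 326, 356 and 359.5 TPM in standard ethanol mice. The standard group had 1 low value and 2 just under the enriched ones; the log2 fold change was 0.15 ± 0.07 (SE) and the limma adjusted p 0.887. Dlg3 stood at 115, 109.5 and 103 TPM in enriched ethanol mice, against 99.5, 99.5 and 85.1 TPM in standard ethanol mice. On the log2 scale the fold change was 0.21 ± 0.10 (SE), with a limma adjusted p of 0.887, and was 0.13 without standard ethanol replicate 3, the lowest library. Pyramidal cell markers were above 0 for 8 of 9 in this comparison, with a median of 0.21. Oligodendrocyte markers were below 0 for 9 of 10, with sums of 3861 to 5725 TPM in enriched ethanol, against 5314 to 5632 in standard ethanol. The part of both lists in the members' values was not tested.

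The interaction asks whether the difference between ethanol and saline mice depended on housing, as the log2 fold change in enriched cages minus that in standard cages. It was above 0 for 28 of 33 members, against 48.4% of all genes, with a median of 0.17, against -0.01. The median was 0.10 when replicate 2 or 3 of standard saline or replicate 2 of enriched saline was left out, and 0.11 when replicate 1 of enriched ethanol was. Unadjusted p was under 0.05 for 5 members, 4 above 0 and 1 below, or 15.2%, against 7.41% of all genes (3.42% above 0 and 3.99% below). By role, all 5 GTPase regulators, all 5 spine actin and adaptor genes, all 3 kinase and calmodulin genes and all 6 Shank and Homer genes were above 0, with medians of 0.27, 0.25, 0.40 and 0.13. The MAGUK scaffolds had 2 of 4 above 0 and a median of 0.03, the GKAP scaffolds 3 of 4 and 0.15, and the adhesion members 4 of 5 and 0.03. The 5 members below 0 were Dlg1 at -0.25, Lrrtm2 at -0.24, Dlgap4 at -0.12, Gphn at -0.04 and Dlg2 at -0.03.

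Kalrn had an interaction of 0.27 ± 0.09 (SE), with a limma adjusted p of 0.564. In enriched cages it averaged 378 ± 21.01 TPM in ethanol and 360.1 ± 15.4 TPM in saline mice, and in standard cages 339 ± 8.18 TPM in ethanol and 389.5 ± 23.3 TPM in saline mice (SD, n = 3 each). Camk2b had an interaction of 0.40 ± 0.14 (SE), with a limma adjusted p of 0.589. Its enriched values were 552, 539 and 507 TPM in ethanol mice and 501, 479 and 477 TPM in saline mice, so the ethanol libraries lay above the saline libraries in enriched cages and below them in standard cages. Ppp1r9b showed the same crossing, with 404, 368 and 384 TPM in enriched ethanol and 366, 352 and 352 TPM in enriched saline mice. Its interaction was 0.26 ± 0.09 (SE), with a limma adjusted p of 0.609. Dlg3 had an interaction of 0.32 ± 0.13 (SE) and a limma adjusted p of 0.646; its saline values were 99.5, 104 and 97.5 TPM in enriched cages and 95.1, 124 and 107 TPM in standard cages, which overlap. Lrrtm2 was the 1 member under 0.05 with a negative interaction, -0.24 ± 0.11 (SE), at a limma adjusted p of 0.671, with 34.8, 36.1 and 37.4 TPM in enriched ethanol mice. Dentate granule cell markers had a median interaction of 0.49, with 9 of 10 above 0 and 5 at an unadjusted p under 0.05. Pyramidal cell markers had a median of 0.15, with 7 of 9 above 0 and 1 at an unadjusted p under 0.05. Other marker lists lay on the other side: choroid plexus markers had 10 of 10 below 0 and a median of -0.97, meningeal fibroblast markers 9 of 9 and -0.78, endothelial markers 9 of 10 and -0.41, and striatal markers 7 of 8 and -0.33. Of these, 4 endothelial, 3 meningeal, 1 striatal and 0 choroid plexus markers had an unadjusted p under 0.05. The largest deviation of choroid plexus markers was 3.91 log2 units, in enriched saline replicate 2. The part of these cells and regions in the members' interaction was not tested. With the length trend removed the members' median was 0.14 and 25 were above 0.

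Averaged over housing, ethanol mice had 24 of 33 members above 0, against 49.2% of all genes, and a median log2 fold change of 0.04, which was -0.002 without replicate 1 of standard saline. Leaving out replicate 1 of enriched ethanol gave 0.01, leaving out replicate 1 of standard ethanol 0.02 and leaving out replicate 2 of enriched saline 0.03. Unadjusted p was under 0.05 for 3, all higher in ethanol mice, or 9.09%, against 8.02% of all genes (3.97% higher and 4.05% lower). Nlgn3 had the smallest p, with a log2 fold change of 0.20 ± 0.08 (SE) and a limma adjusted p of 0.555. In standard cages it was at 89.1, 75.4 and 76.4 TPM in ethanol mice and 60.8, 77.2 and 82.7 TPM in saline mice, which overlap. Nrgn had 0.11 ± 0.05 (SE) (limma adjusted p 0.592), with 433, 399 and 459.6 TPM in standard ethanol mice and 397, 444 and 413 TPM in standard saline mice. Dlg2 had 0.15 ± 0.06 (SE) (limma adjusted p 0.596). It stood at 232, 191 and 203 TPM in enriched ethanol and 234, 221 and 203 TPM in standard ethanol mice, against 189, 188 and 192 TPM in enriched saline and 175, 191 and 221 TPM in standard saline mice. Over all 6 libraries against 6, 0 members were free of overlap, against 0.154% of all genes higher and 0.261% lower. All 10 oligodendrocyte markers were above 0 in this comparison, 7 of them at an unadjusted p under 0.05, with a median of 0.35. All 10 choroid plexus markers were below 0, 0 of them at an unadjusted p under 0.05, with a median of -0.64. On the log2 scale choroid plexus markers deviated by 3.91 in enriched saline replicate 2, against -0.73 and -1 in its replicates 1 and 3. In standard ethanol replicate 1 they deviated by 1.12. The part of both lists in the members' values was not tested.

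Averaged over exposure, enriched mice had 14 of 33 members above 0, against 50.0% of all genes, and a median of -0.01, which changed sign when replicate 1 of standard ethanol (0.001) or when replicate 2 (0.012) or 3 (0.003) of standard saline was left out. All 10 oligodendrocyte markers were below 0, 4 of them at an unadjusted p under 0.05, with a median of -0.27, and their part in the members' values was not tested. Iqsec2 was the 1 member with an unadjusted p under 0.05, or 3.03%, against 7.96% of all genes (4.14% higher and 3.82% lower). Its log2 fold change was -0.31 ± 0.13 (SE), with a limma adjusted p of 0.61. It stood at 54.4, 44.1 and 43.5 TPM in enriched ethanol mice, against 64.8, 46.2 and 47.5 TPM in standard ethanol mice, and the groups overlapped.

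Genes of the same pathway outside the 33 were counted in the same way. Of 46 other postsynaptic density genes tested, 41 synaptic adhesion genes, 16 genes of the inhibitory postsynapse, 14 glutamate receptor genes and 8 dendritically localised transcripts, 0 passed the adjusted threshold in any comparison. At an unadjusted p under 0.05, the other postsynaptic density genes had 1 higher and 6 lower for ethanol in standard cages, or 15.2%, against 7.39% of all genes. For ethanol in enriched cages they had 3 higher and 0 lower, or 6.52%, against 7.76%. For enrichment in saline mice they had 4 higher and 5 lower, or 19.6%, against 10.0%, and for enrichment in ethanol mice 2 higher and 1 lower, or 6.52%, against 5.57%. The interaction was above 0 for 30 of 46, with a median of 0.11, where 48.4% of all genes were above 0.

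The 41 adhesion genes outside the 33 lay mostly on the other side from the members for enrichment in saline mice. For the interaction they lay near all genes. For enrichment in saline mice 26 of 41 were above 0, against 50.9% of all genes, with a median of 0.03. At an unadjusted p under 0.05, 7 were higher and 0 lower, or 17.1%, against 10.0%. Of the 33 members, 5 were above 0. The 5 adhesion members were split, 2 above and 3 below 0, with a median of -0.02. The interaction of the 41 adhesion genes was above 0 for 17, with a median of -0.01, against 48.4% and -0.01 for all genes. That of the receptor genes was above 0 for 10 of 14, with a median of 0.15. For enrichment in saline mice 29 of 46 other postsynaptic density genes were below 0, 10 of 14 receptor genes and 7 of 8 dendritically localised transcripts. The 16 inhibitory genes were split, 8 and 8. For ethanol in enriched cages 12 of 14 receptor genes, 7 of 8 dendritic transcripts and 28 of 46 other postsynaptic density genes were above 0, against 48.1% of all genes. Adhesion genes had 20 of 41 above 0 there. The difference between these lists and the members was not tested.

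Psd, which encodes an exchange factor for Arf and is counted among the dendritically localised transcripts, was also lower by its values in ethanol mice of standard cages. It stood at 392, 404 and 393 TPM in standard ethanol mice, against 459.6, 518 and 473 TPM in standard saline mice, with a log2 fold change of -0.29 ± 0.06 (SE) and a limma adjusted p of 0.271. In enriched cages it was at 433, 460.2 and 412 TPM in ethanol mice and 395, 408 and 424 TPM in saline mice, and its interaction was 0.37 ± 0.08 (SE) (limma adjusted p 0.509). Its standard groups were apart and its enriched groups overlapped. Of the other postsynaptic density genes, Cacng3, an auxiliary subunit of AMPA receptors, had the smallest p in standard cages, at 40.6, 37.4 and 42.3 TPM in ethanol mice, against 33.5, 28.3 and 34.7 TPM in saline mice. The ethanol values were all above the saline values, with a log2 fold change of 0.32 ± 0.10 (SE) and a limma adjusted p of 0.5. Magi2, a scaffold with guanylate kinase and PDZ domains, was at 84.5, 78.7 and 77.04 TPM in standard ethanol, against 89.7, 87.9 and 95.8 TPM in standard saline mice. This gave a log2 fold change of -0.19 ± 0.06 (SE), with a limma adjusted p of 0.538.

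Camk2d encodes the delta subunit of CaMKII, which is made in many tissues. It was at 65.4, 75.02 and 73.1 TPM in enriched saline mice, against 39.4, 26.4 and 56.9 TPM in standard saline mice, with a log2 fold change of 0.86 ± 0.20 (SE) and a limma adjusted p of 0.26. The enriched values were all above the standard ones, so Camk2d lay on the other side from Camk2a and Camk2b in these libraries. Akap5, an anchor for protein kinase A and calcineurin at the synapse, was at 63.97, 59.9 and 66.7 TPM in enriched saline, against 49.3, 53.5 and 51.2 TPM in standard saline mice. The same gene was at 64.2, 57.8 and 63.9 TPM in enriched ethanol mice, against 50.7, 54.8 and 57.5 TPM in standard ethanol mice. It was higher in enriched mice in both, with a log2 fold change averaged over exposure of 0.25 ± 0.05 (SE) and a limma adjusted p of 0.251. Among the receptor genes, Grin3a, an NMDA receptor subunit, was at 21.6, 23.2 and 21.6 TPM in standard ethanol, against 16.1, 16.7 and 19.9 TPM in standard saline mice. Its log2 fold change was 0.33 ± 0.10 (SE), with a limma adjusted p of 0.484.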

How the data were processed

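Per the labels' protocols, stranded total RNA libraries were made from snap-frozen hippocampi after ribosomal RNA depletion. Per the submitters' processing notes, CASAVA, kallisto, sleuth and the build mm10 were used, with versions, roles and annotation not given in the sources used here. Values in the table, a deposited signal per gene, are named TPM by the authors, yet library sums ran over 973187 to 1024536, which plain TPM would not; they were used as deposited in place of the plain TPM that the design had assumed, with the same test. TPM keeps no read counts, so depth is unknown and no counting interval is given.

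Values were analysed as log2(value + 0.5) for 14947 genes whose mean was 1 or more. limma 3.58.1 in R 4.3.3 fitted 4 group means to the 12 libraries (8 residual degrees of freedom, 3.82 from the prior), with a mean-variance trend, and 7 contrasts, two-sided. P-values were adjusted by Benjamini-Hochberg over these genes, with a threshold of 0.05. The script was tested on simulated data. No 2 libraries were identical. Positions, transcript lengths and biotypes came from GENCODE M21 (GRCm38), which gave a symbol to 35879 of 36119 identifiers. The libraries with the same replicate number were checked for pairing. Their deviations correlated at -0.15 to 0.06 over 18 pairs, against -0.09 to 0.12 over 36 pairs of other numbers. No pairing showed in these correlations over all genes tested, which could miss a weak one.

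The members and lists were chosen with earlier results of these data known. Members named with full values are, in each comparison, up to 5 with the smallest unadjusted p if under 0.05; genes outside the members are up to 2 of a list by the same p. Marker lists were counted for 14 cell types and regions; the pyramidal list counts 9 genes, without Camk2a. Alternatives were the pseudocount, the filter, the scaling, the trend, the groups fitted, a replicate block, each library left out and, added after seeing the data, a lowess trend on transcript length removed from each library.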

Additional observations from a re-analysis of the deposited data

Results flagged for a closer look

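For 2 members the libraries of ethanol and saline mice did not overlap in either housing, in opposite directions. The share of all genes with such a crossing was not counted, so whether 2 members are more than the background cannot be said. Taken singly, 7.78% of all genes were higher without overlap in enriched cages, and 5.99% lower without overlap in standard cages. These single shares do not give the share of genes with both. Camk2b was higher in enriched ethanol mice (552, 539 and 507 TPM) than in enriched saline mice (501, 479 and 477 TPM), and lower in standard ethanol mice (501, 471 and 428 TPM) than in standard saline mice (502, 667 and 525 TPM). In standard cages the groups of Camk2b were apart only by 501.4 TPM in ethanol replicate 1 against 501.7 TPM in saline replicate 1. The interaction of Camk2b was 0.40 on the log2 scale, with a limma adjusted p of 0.589. Ppp1r9b was higher in enriched ethanol mice (404, 368 and 384 TPM) than in enriched saline mice (366, 352 and 352 TPM), and lower in standard ethanol mice (326, 356 and 359.5 TPM) than in standard saline mice (361, 422 and 375 TPM). Its interaction was 0.26, with a limma adjusted p of 0.609. Neither difference between the housings passed the adjusted threshold. Without standard saline replicate 2 the interactions were 0.27 for Camk2b and 0.20 for Ppp1r9b.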

How the results depend on the processing

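Of 33 members, 0 passed in all 158 recalculations of the 7 comparisons, and the 520 recalculated fold changes of the named members kept their sign and stayed above the adjusted threshold. The members' median for ethanol in standard cages (-0.04) ran from -0.13 to 0.055 with 1 library left out, changing sign without standard saline replicate 3, and that for enrichment in saline mice (-0.11) from -0.202 without standard saline replicate 1 to -0.054 without its replicate 3. With 1 library left out the other medians ran from 0.071 to 0.143 for ethanol in enriched cages (0.12), -0.032 to 0.08 for enrichment in ethanol mice (0.02), 0.097 to 0.243 for the interaction (0.17), -0.002 to 0.064 for ethanol averaged over housing (0.04) and -0.05 to 0.012 for enrichment averaged over exposure (-0.01), so the sign changed in 3 of these 5. Each of these 5 moved by less than the spread between libraries, an SD of 0.09. With 1 library left out, counts of called genes over the whole table ran from 2 to 7 for ethanol in standard cages, 0 to 15 for ethanol in enriched cages, 1 to 20 for enrichment in saline mice, 1 to 21 for enrichment in ethanol mice, 1 to 12 for the interaction, 1 to 10 for ethanol averaged over housing and 2 to 12 for enrichment averaged over exposure. A pseudocount of 0.1 gave 2 genes for ethanol in enriched cages and 0 for ethanol in standard cages, enrichment in ethanol mice, the interaction and ethanol averaged over housing; a pseudocount of 1 gave 1 for enrichment in saline mice. No filter gave 7, 1, 7, 2, 4, 6 and 6 genes for the 7 comparisons in the order above. A minimum mean of 5 gave 1 for enrichment in saline mice and 0 for the other comparisons. Fitting only the groups compared gave 4, 1, 8 and 4 for the comparisons of 2 groups. Removing the length trend gave 1 for ethanol in standard cages, the interaction and ethanol averaged over housing, and 0 for enrichment in ethanol mice. The cause of these moves was not tested. The replicate block gave 1 gene, against 2, for ethanol averaged over housing; with the length trend removed too it gave 1 there and for ethanol in standard cages and 0 for enrichment in ethanol mice and enrichment averaged over exposure. The block called 0 members. Of the 12 libraries, 1 correlated best with its own replicate number in every other group. The depth is unknown, so the share of counting error in the spread between libraries cannot be given.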

Other observations

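The ratio of Camk2a to Camk2b, the alpha over the beta subunit of CaMKII, was 1.48, 1.21 and 1.34 in enriched ethanol mice, 1.71, 1.35 and 1.34 in standard ethanol mice, 1.07, 1.13 and 1.08 in enriched saline mice and 1.116, 1.14 and 1.81 in standard saline mice. Enriched saline mice had the 3 libraries with the least spread, and standard saline replicate 3 held the highest ratio. All 6 ethanol values lay above 5 of the 6 saline values. This ratio was chosen after its values were seen and was not tested.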
